A study of Mus musculus with 25 samples.

Results

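The genes of the translation initiation factors were taken from the table by their mouse symbols, which begin with Eif and a digit from 1 to 6. Such symbols number 59 among 23351 genes, and 58 are reported, since the rule leaves out 1. Their values were followed over 25 RNA-seq libraries of oligodendrocyte precursor cells (OPC), the proliferating glia that give rise to the myelinating cells of the brain, cut from mouse brain by laser capture microdissection. By their labels 7 libraries come from Day 15 of white matter stroke, an ischemic injury of myelinated fibre tracts, 8 from Day 5 of white matter stroke, and 10 are Control libraries with no stroke. The labels give no strain, sex, age or number of animals, no stroke method and no treatment, and they do not tie a library to an animal, so libraries of a group may share one, and p-values measure the spread between these libraries, which may be technical.

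Initiation is the step at which a ribosome is placed on the start codon of an mRNA. eIF2 delivers the initiator tRNA to the small ribosomal subunit with eIF1, eIF1A, eIF3 and eIF5. eIF4E holds the cap of the mRNA, the helicase eIF4A unwinds structure in the leader behind it, the scaffold eIF4G bridges both to the ribosome, and eIF5B joins the large subunit. Kinases that phosphorylate eIF2 and small proteins that hold back eIF4E are the best known brakes on the process. The 4 symbols Eif2c1 to Eif2c4 are older names of the Argonaute genes, which act in RNA silencing and not in initiation, so that 54 of the 58 genes are named for an initiation factor or one of its regulators.

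Levels are RPKM, a unit that divides reads by gene length and library size, as the authors deposited them, and the read depth behind them is unknown. A gene entered the tests if 7 or more libraries held it at 1 RPKM or above, which 4319 genes in all and 35 of the 58 did. The 23 others include all 5 subunits of eIF2B, the exchange factor that recharges eIF2. Of the eIF3 subunits 11 of 14 were tested, and of the eIF4G scaffolds 3 of 3. Eif3j1 was listed at 0 in all 25 libraries, and its near-identical copy Eif3j2 never exceeded 0.813 RPKM. How reads shared by the pair were handled is not known. Differences were tested with limma on log2(RPKM + 1), which understates the change of low genes, and a gene was called at a Benjamini-Hochberg adjusted p under 0.05 over all 4319.

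The eIF3 subunit genes Eif3l and Eif3d passed this test at Day 5, as did Eif5a, whose promoter is not shown. The promoters of Eif3l and Eif3d are given with that of the cap-binding protein gene Eif4e, which lay just outside the limit. Eif3i and Eif3k lay closer to the limit and are not shown. The windows run from 100 bases before to 30 bases after the annotated start and are RefSeq sequence of mouse build GRCm38.p6, while the study's notes name mm9. Capitals mark CTTCCGG, the reverse complement of the ETS-type core CCGGAAG, in Eif3l and Eif3d, and the E-box CACGTG in Eif4e.
Eif3l, chr15:79075123-79075252, plus strand: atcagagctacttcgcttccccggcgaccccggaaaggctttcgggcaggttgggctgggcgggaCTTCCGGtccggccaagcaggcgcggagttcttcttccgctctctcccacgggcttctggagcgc
Eif3d, chr15:77970795-77970924, minus strand: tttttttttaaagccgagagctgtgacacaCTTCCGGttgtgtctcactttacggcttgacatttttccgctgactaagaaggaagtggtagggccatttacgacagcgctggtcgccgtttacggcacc
Eif4e, chr3:138527168-138527297, plus strand: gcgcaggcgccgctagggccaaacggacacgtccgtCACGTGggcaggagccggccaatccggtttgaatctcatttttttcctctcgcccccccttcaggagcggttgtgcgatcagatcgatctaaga
Over promoter windows of 250 bases before to 50 after the start, read on both strands, CCGGAAG was present in 16 of the 42 initiation factor genes with a window (38.1%) and in 9.93% of 27025 genes. CACGTG was present in 10 of the 42 (23.8%) and in 8.09% of all genes. Eif5a was among the genes that held both. These matches describe the letters and are no evidence of binding.

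A property of the table bears on many of these genes and is given first. The rows are in alphabetical order, so the 58 genes stand next to each other, and in 23 of 25 libraries there were places where the values of neighbouring rows were displaced together. Taking each value as log2 over the gene's median, with a running median over 31 rows above 2 as the limit, 102 places were marked. The limit applies to the window around a row, and 6 of the marked places were a single row and 5 had a median under 0 over their own rows. At the other end, 16 spanned 100 rows or more, in 16 libraries, with displacements of 2.72 to 4.83 on the log2 scale.

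In Day 5 replicate 1 a run of 42 rows covered 36 of the 58 genes, from Eif1 to Eif3l, with a displacement of 4.28. The 20 rows before Eif1 had a median of 0.448 in that library and the 20 rows after Eif6 one of 0.069, while the 21 usable initiation factor genes after the run had 0.826. Day 5 replicate 1 was the highest of all 25 libraries for 23 of the 36 genes in the run. A second run, in Day 5 replicate 4, covered the 13 genes from Eif4a2 to Eif4g2 with a displacement of 2.08. The Day 5 results that turn on these libraries are given with all values, with displaced values left out, a choice made after seeing the data, or without Day 5 replicate 1. No run touched these genes in a Day 15 or Control library.

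**Figure D1:**
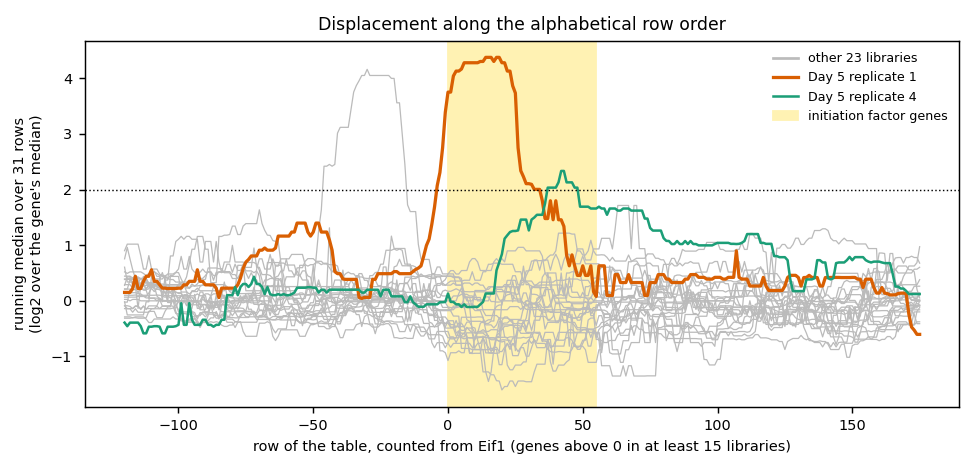
Running median over 31 rows of the log2 value over each gene's median, against the row of the table counted from Eif1, with 1 line per library and the rows of the initiation factor genes shaded. Day 5 replicate 1 stands above 4 over the first part of the shaded rows and Day 5 replicate 4 just above 2 over a later part; the dotted line is the limit of 2.

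More of the initiation factor genes were detected at Day 5 than in the other groups. Members at 1 RPKM or more numbered 10 to 31 in Day 15 libraries with a median of 17, 16 to 49 in Day 5 libraries with a median of 31.5, and 8 to 33 in Control libraries with a median of 15. Without Day 5 replicate 1 the Day 5 median was 25. The number of all genes at 1 RPKM or more moved with it, with medians of 2509 at Day 15, 4006.5 at Day 5 and 2329.5 in Control, and a fit with it as a covariate is given with the Day 5 results. As a share of the RPKM sum without Rn45s, the ribosomal RNA precursor, the 58 genes took a median of 0.904% at Day 15, 0.749% at Day 5 and 0.391% in Control, with ranges that overlapped. The order of the 2 stroke days turned on Eif4g2. With Eif4g2 left out the medians were 0.468% at Day 15, 0.648% at Day 5 and 0.276% in Control, again with ranges that overlapped.

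**Figure D2:**
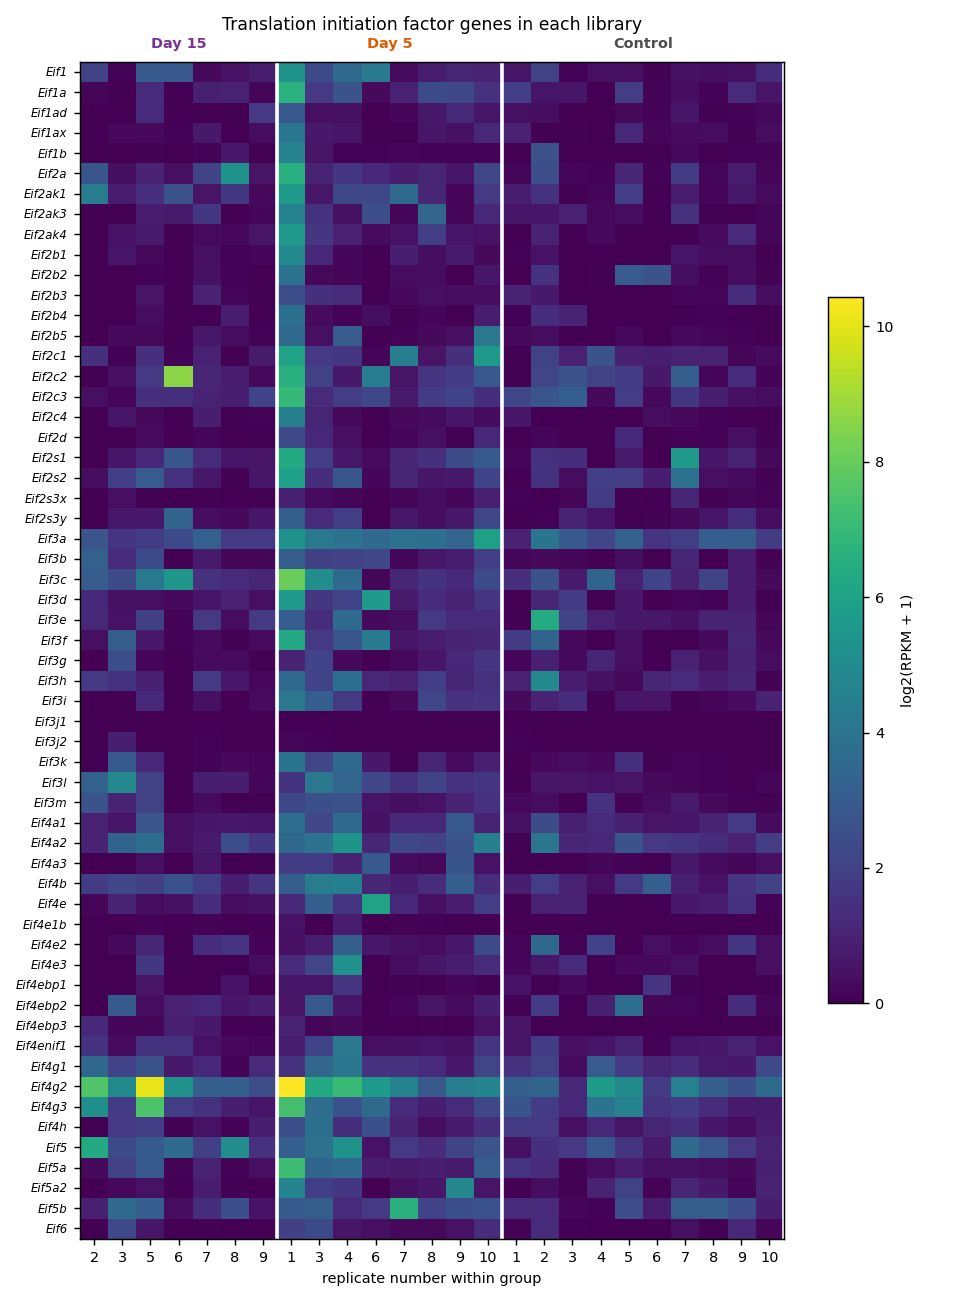
Heat map of log2(RPKM + 1) for all 58 genes (rows) in all 25 libraries (columns, by group and replicate number). The column of Day 5 replicate 1 is bright from Eif1 to Eif3f, and Eif4g2 is bright in most columns.

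The scaffold Eif4g2, an eIF4G relative that lacks the eIF4E binding site and serves cap-independent initiation, was the most abundant member, with a mean over the 25 libraries of 129 RPKM. It had 4.56 to 1082 RPKM with a median of 29.0 at Day 15, 6.44 to 1382 RPKM with a median of 37.0 at Day 5, and 1.26 to 50.5 RPKM with a median of 8.61 in Control. The groups overlapped widely, and the high values sat in few libraries: Day 15 replicates 5 and 2 held 1082 and 194 RPKM, and Day 5 replicates 1 and 4 held 1382 and 134 RPKM. Eif4g2 was the highest member in 12 of 25 libraries and took 2.60% to 77.9% of the summed RPKM of the 58 genes.

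Per length, Eif4g2 stood above Eif4g1, the main eIF4G scaffold, in 25 of 25 libraries and above Eif4g3 in 24. Its difference in log2(RPKM + 1) was 2.38 at Day 5 against Control (SE 0.89, limma adjusted p = 0.0838) and 1.85 at Day 15 against Control (SE 0.93, limma adjusted p = 0.569), and neither passed. Without Day 15 replicate 5 the Day 15 difference was 1.04 (limma adjusted p = 0.828). Without Day 5 replicate 1 the Day 5 difference was 1.71 (limma adjusted p = 0.237), and with displaced values left out 2.19 (limma adjusted p = 0.119). Day 15 against Day 5 differed by -0.53 (SE 0.97, limma adjusted p = 0.821), and this value ran from -1.34 without Day 15 replicate 5 to 0.13 without Day 5 replicate 1. Eif4g3 was also highest in Day 15 replicate 5 with 181 RPKM and Day 5 replicate 1 with 161 RPKM.

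The first comparison asked which of these genes differ at Day 5 of stroke. Of the 35 tested, 3 rose against Control and 0 fell, where 6.04% of all 4319 genes were called and 6.02% were called higher. These were Eif3l and Eif3d, subunits of the eIF3 scaffold on the small ribosomal subunit, and Eif5a, the factor that helps ribosomes through difficult peptide bonds and carries hypusine. An unadjusted limma p under 0.05 was reached by 20 of the 35 and by 26% of all genes. All 35 differences were above 0, with a median of 1.28 against 0.61 for all genes, of which 84.9% were above 0. The filter of 7 libraries can let in a gene through its Day 5 values alone, so these directions are not independent of it. Without the filter 55 of 57 differences were above 0, with a median of 0.99. For all genes 75.7% were then above 0, with a median of 0.08. With displaced values left out 4 genes rose, where 7.27% of all genes were called, and the median over the 35 genes was 0.94 against 0.59. Without Day 5 replicate 1 only Eif3l rose, where 3.1% were called.

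Eif3l had 0.0109 to 28.9 RPKM with a median of 0.853 at Day 15, 1.78 to 16.4 RPKM with a median of 2.64 at Day 5, and 0 to 0.461 RPKM with a median of 0.175 in Control. All 8 Day 5 libraries lay above the highest Control library, a pattern found in 0.533% of all genes tested, and 5 of 7 Day 15 libraries did as well. Eif3l reached 1 RPKM in 8 Day 5, 3 Day 15 and 0 Control libraries. It thus entered the tests through its Day 5 values, so the pattern is a description that is not independent of the filter. Day 5 replicate 1 held 1.92 RPKM, near the low end of its group, although Eif3l is the last row of the displaced run there. The rise was 1.96 (SE 0.53, limma adjusted p = 0.0241), and 2.06 both without Day 5 replicate 1 (limma adjusted p = 0.0303) and with displaced values left out (limma adjusted p = 0.0167). The call was lost without Day 5 replicate 3 (1.69, limma adjusted p = 0.0658).

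Eif3d had 0.210 to 1.27 RPKM with a median of 0.373 at Day 15, 0.665 to 48.2 RPKM with a median of 2.06 at Day 5, and 0 to 2.59 RPKM with a median of 0.101 in Control. The groups overlapped, with 3 of 8 Day 5 libraries above the highest Control library, and Day 5 replicates 6 and 1 stood far above the rest of their group at 48.2 and 47.4 RPKM. The rise was 1.95 (SE 0.54, limma adjusted p = 0.0263), 1.50 with displaced values left out (limma adjusted p = 0.0440) and 1.50 without Day 5 replicate 1, where it did not pass (limma adjusted p = 0.0687).

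Eif5a had 0.0731 to 6.42 RPKM with a median of 0.353 at Day 15, 0.686 to 147 RPKM with a median of 4.03 at Day 5, and 0.0288 to 1.97 RPKM with a median of 0.378 in Control. Its highest value was in Day 5 replicate 1, past the end of the displaced run, and the other 7 Day 5 libraries reached 11.5 RPKM. The rise was 1.90 (SE 0.61, limma adjusted p = 0.0493), and 1.24 without Day 5 replicate 1 (limma adjusted p = 0.140). The call was lost in 16 of the 25 fits that left out 1 library.

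**Figure D3:**
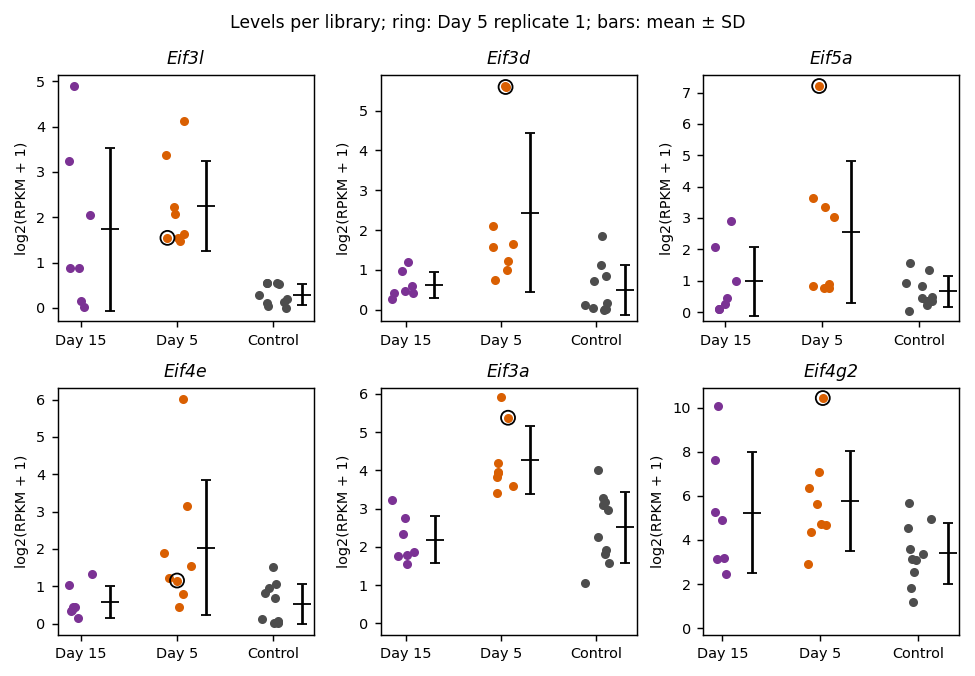
Log2(RPKM + 1) per library for Eif3l, Eif3d, Eif5a, Eif4e, Eif3a and Eif4g2 at Day 15, Day 5 and Control, with mean ± SD beside the points and Day 5 replicate 1 ringed. Only in the Eif3l panel do all 8 Day 5 points lie above every Control point.

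Eif4e, whose product binds the cap, had 0.115 to 1.50 RPKM with a median of 0.367 at Day 15, 0.354 to 63.5 RPKM with a median of 1.62 at Day 5, and 0.00448 to 1.84 RPKM with a median of 0.349 in Control. Day 5 replicate 6 alone held 63.5 RPKM. The difference at Day 5 was 1.50 (SE 0.50, limma adjusted p = 0.0551), and with displaced values left out it passed at 1.57 (limma adjusted p = 0.0480). The only Eif4e value left out there was that of Day 5 replicate 4, 1.93 RPKM, near the Day 5 median, and 7.27% of all genes were called. Without Day 5 replicate 1 the difference was 1.63 (limma adjusted p = 0.0653) and without Day 5 replicate 6 it was 0.93 (limma adjusted p = 0.091). The homolog Eif4e2, a cap-binding protein of repressive complexes, differed by 0.23 (limma adjusted p = 0.777), a value that ran from -0.06 without Day 5 replicate 4 to 0.52 without Control replicate 2.

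Among the other eIF3 subunits, Eif3a, the largest core subunit, had 1.94 to 8.36 RPKM with a median of 2.61 at Day 15, 9.56 to 59.4 RPKM with a median of 14.4 at Day 5, and 1.06 to 15.1 RPKM with a median of 5.30 in Control. Every Day 15 library lay below every Day 5 library, a pattern found in 0.301% of all genes tested, and 3 of 8 Day 5 libraries lay above the highest Control library. Eif3a differed by 1.76 at Day 5 against Control (SE 0.59, limma adjusted p = 0.0569). Eif3i differed by 1.28 (limma adjusted p = 0.0534), Eif3k by 1.35 (limma adjusted p = 0.0543) and Eif3b by 1.29 (limma adjusted p = 0.0599). Over the 11 tested subunits 2 rose, the median was 1.34, and it was 1.02 with displaced values left out.

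The 2 tested genes of eIF1 and eIF1A, which keep the scanning ribosome open until it meets a start codon, did not pass. Eif1 differed by 1.71 (limma adjusted p = 0.0569) and Eif1a by 1.56 (limma adjusted p = 0.0646). Eif1a held 99.8 RPKM in Day 5 replicate 1 and at most 5.29 RPKM in the other Day 5 libraries, and its difference without that library was 0.93 (limma adjusted p = 0.189). Of the eIF2 kinases, Eif2ak1, the heme-regulated kinase, differed by 1.54 (limma adjusted p = 0.0881), or 1.04 without Day 5 replicate 1, and Eif2ak3, the kinase PERK of the endoplasmic reticulum, by 1.30 (limma adjusted p = 0.0663), or 0.90.

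The 3 tested genes of the eIF2 group had a median difference of 0.99, which was 0.38 with displaced values left out. Eif2a, a separate factor able to deliver initiator tRNA, held 94.0 RPKM in Day 5 replicate 1 and at most 3.55 RPKM in the other Day 5 libraries. Of the helicase genes, Eif4a2 stood above its paralog Eif4a1 in 19 of 25 libraries, and the differences were 1.52 (limma adjusted p = 0.121) and 1.02 (limma adjusted p = 0.182). Eif5, the activator of the eIF2 GTPase, differed by 0.81 (limma adjusted p = 0.450), or 0.43 without Day 5 replicate 4, which held 38.6 RPKM.

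The Argonaute genes had 0 of 3 called. Eif2c1 differed by 1.69 (limma adjusted p = 0.0790), and Eif2c2 held 392 RPKM in Day 15 replicate 6, more than any other member in that library. Of the paralogs and homologs, Eif1 stood above Eif1b in 23 of 25 libraries, Eif5a above Eif5a2 in 19 and Eif4e above Eif4e2 in 14. Eif2s3y, the Y-linked copy of an eIF2 subunit gene, was above its X-linked copy Eif2s3x in 20 of 25 libraries.

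**Figure D4:**
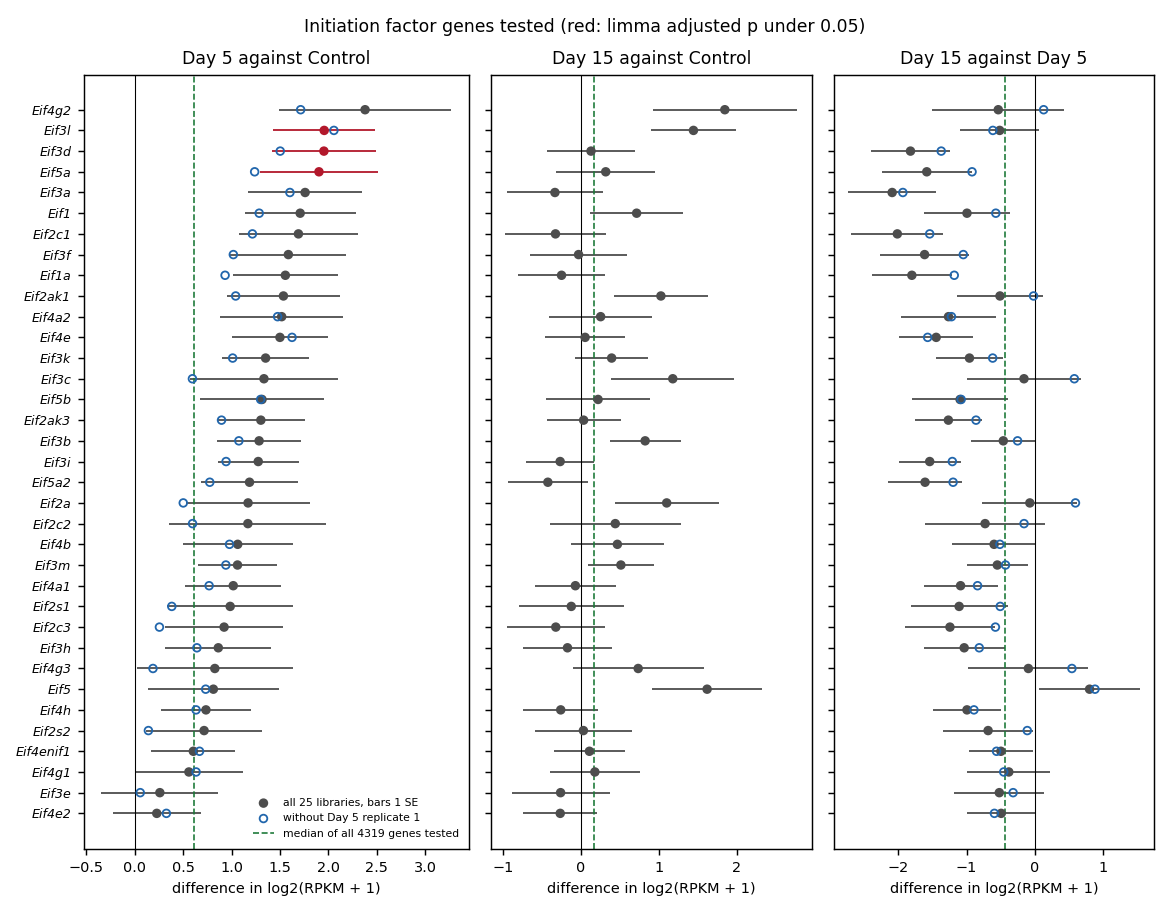
Differences in log2(RPKM + 1) of the 35 genes tested for the 3 comparisons, with 1 SE (filled points), the same without Day 5 replicate 1 (open points, where that library enters the comparison) and the median of all 4319 genes (dashed line). In the Day 5 panel all filled points are above 0 and the 3 red points are the genes called.

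The level of all genes was displaced at Day 5 as well, and it depended on how libraries were scaled. With libraries brought to a common upper quartile the median over the 35 genes was 0.68, against 0.10 for all genes. With a common sum of RPKM, Rn45s left out, it was 0.71 against 0.15, and with quantile-normalized values 0.54 against -0.02. None of the 35 passed limma under any of these scalings, where 0.509%, 0.764% and 0.463% of all genes did. An unadjusted p under 0.05 was reached by 8 of the 35 and 12.4% of all genes under upper-quartile scaling, by 12 and 13.1% with the common sum, and by 5 and 12.2% after quantile normalization. With the number of genes at 1 RPKM or more as a covariate 0 of 35 passed, as did 0 of all 4319 genes, 4 of the 35 and 10.3% of all genes had an unadjusted p under 0.05, and the median was 0.37 against 0.07 for all genes. Within replicate numbers 1 to 6, which the labels do not call a batch, Eif3l differed by 2.41 (limma adjusted p = 0.131), and within numbers 7 to 10 by 1.56 (limma adjusted p = 0.117).

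At Day 15 against Control 0 of the 35 genes passed limma, where 0.0926% of all genes did, and with displaced values left out again 0 passed, where 0.162% did. An unadjusted p under 0.05 was reached by 2 of the 35 and by 8.87% of all genes. These were Eif3l with a difference of 1.44 (SE 0.55, limma adjusted p = 0.369) and Eif5 with 1.62 (SE 0.70, limma adjusted p = 0.461). The value of Eif3l was 0.92 (limma adjusted p = 0.687) when the Day 15 library with 28.9 RPKM, replicate 3, was left out. Eif5 had 1.83 to 81.1 RPKM with a median of 6.82 at Day 15 and 0.387 to 10.8 RPKM with a median of 2.14 in Control, and 3 of 7 Day 15 libraries lay above the highest Control library. Differences were above 0 for 22 of the 35 genes, with a median of 0.13 against 0.17 for all genes.

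At Day 15 against Day 5 again 0 of 35 passed limma, where 0% of all genes did. An unadjusted p under 0.05 was reached by 10 of the 35 and by 14.7% of all genes. The smallest p belonged to Eif3i with -1.54 (SE 0.46, limma adjusted p = 0.193), Eif3a with -2.09 (SE 0.65, limma adjusted p = 0.202), Eif3d with -1.82 (SE 0.59, limma adjusted p = 0.216), Eif1a with -1.80 (SE 0.59, limma adjusted p = 0.221) and Eif2c1 with -2.02 (SE 0.67, limma adjusted p = 0.221). Without Day 5 replicate 1 the difference of Eif3a was -1.93 and that of Eif1a -1.18. The median over the 35 genes was -0.99 against -0.44 for all genes, and -0.58 against -0.41 with displaced values left out. This comparison and Day 5 against Control share the Day 5 libraries, and the comparisons with Control share the Control libraries.

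Other genes of translation were read from lists chosen with earlier results known. Of all genes 6.04% were called at Day 5, and lists this short can hold 0 or 1 call at that share. At Day 5, 1 of 9 tested elongation and release factors rose, Etf1, the release factor that reads stop codons, by 2.08 (SE 0.60, limma adjusted p = 0.0315). Of 10 tested cofactors outside the Eif symbols 1 rose, Bzw1, an eIF5 mimic, by 2.11 (SE 0.58, limma adjusted p = 0.0267). Both calls were lost under the 3 scalings above. The call of Etf1 was also lost when Control replicate 3, 4, 6 or 10 or Day 5 replicate 4 or 10 was left out (limma adjusted p from 0.0563 to 0.0813), and that of Bzw1 without Day 5 replicate 4 or 9 (limma adjusted p = 0.0504 and 0.0510).

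A mixed list held targets of the integrated stress response, the program set off by eIF2 phosphorylation, and its phosphatase and other regulators. Of its 24 genes 10 were tested, and 0 of these were called with limma at Day 5, where 6.04% of all genes were. An unadjusted p under 0.05 was reached by 0 of the 10 and by 26% of all genes. Their median was 0.55, below the 0.61 of all genes. Of 17 genes of mTORC1 and MNK signalling, which act on eIF4E and its binding proteins, 6 were tested. Among these 0 were called and 1 had an unadjusted p under 0.05, Rragc with 1.44 (limma adjusted p = 0.0838). In both comparisons with Day 15 these 4 lists had 0 genes called, where 0.0926% of all genes were called against Control and 0% against Day 5.

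Some markers of phagocytes were called higher at Day 5 against Control, where 6.02% of all genes were. Macrophage and leukocyte markers rose in 6 of 8 tested at Day 5, and their summed level ran from 44.7 to 584 RPKM at Day 15, 160 to 2604 RPKM at Day 5 and 1.06 to 85.9 RPKM in Control. The medians of that sum were 103 RPKM at Day 15, 804 RPKM at Day 5 and 14.5 RPKM in Control. Microglia markers rose in 5 of 14, with sums of 47.4 to 1651 RPKM at Day 15, 85.5 to 674 RPKM at Day 5 and 11.6 to 79.5 RPKM in Control. Their median sum was highest at Day 15, with 257 RPKM, against 158 RPKM at Day 5 and 26.2 RPKM in Control. In both lists 0 markers were called at Day 15 against Control, where 0.0926% of all genes were. OPC markers had 0 of 9 called, with sums of 11.4 to 263 RPKM at Day 15, 14.5 to 88.6 RPKM at Day 5 and 6.72 to 111 RPKM in Control. The OPC markers Olig2, Neu4 and Nkx2-2 were under 1 RPKM in at least 20 libraries. Markers of mature oligodendrocytes and myelin had 0 of 11 called and larger sums than the OPC markers, with medians of 170 RPKM at Day 15, 319 RPKM at Day 5 and 707 RPKM in Control. Astrocyte markers had 0 of 9 called and medians of 173 RPKM at Day 15, 65.0 RPKM at Day 5 and 65.5 RPKM in Control. The part of these cells in the differences of the initiation factor genes was not tested, and fewer cells of a type cannot be told apart from less RNA per cell.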

How the data were processed

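Per the labels' protocols, cDNA of captured cells was amplified (Nugen Ovation) and sequenced as paired ends. The submitters' processing notes name STAR 2.1.4a, CASAVA 1.8.3, HTSeq and mouse build mm9. The deposited values are RPKM, per the authors' name for the table, and the sources used here do not say how they were computed. Low or 0 values can be failed detection, and neither counting intervals nor strand are known. Of 59 matching symbols, 1 is not reported here.

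limma 3.58.1 in R 4.3.3 was fitted to log2(RPKM + 1) of all 4319 genes kept, with 3 group means, an intensity trend and robust variances, two-sided. A trial on simulated data drew independent normal values, without displaced runs or shifts of whole libraries, so it does not cover these features of the table. Displaced runs, promoters and counts were computed in Python 3.11.15. Named genes were Eif4g2, every gene called, the 5 smallest p per comparison, the most abundant gene per role and paralog pairs; Eif2ak3 and Eif4g3 were added with their values known. The members and lists were chosen with earlier results of these data known. Alternatives are given in the closing section.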

Additional observations from a re-analysis of the deposited data

Results flagged for a closer look

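In each group the gap between the most extreme library and its nearest neighbour, over the group's range on the log2(RPKM + 1) scale, was compared with Dixon's 95% critical value. Of 81 gene and group pairs 16 exceeded it, and all 16 were the highest library of a group. The rate of about 1 in 20 by chance holds for normal values, while many values here lie near the lower bound of the scale. Some of the genes were also chosen as the most abundant of their role, a mean that a single high library can raise. The count of 16 therefore cannot be weighed against 1 in 20, and the pairs are listed as a description. Day 5 replicate 1 stood apart for Eif1a with 99.8 RPKM, Eif1b with 24.0 RPKM, Eif2a with 94.0 RPKM and Eif5a with 147 RPKM, the first 3 of them in the displaced run of rows. Day 5 replicate 4 stood apart for Eif4e3 with 37.6 RPKM and Eif4enif1 with 16.5 RPKM, both in its own displaced run.

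At Day 15, replicate 5 stood apart for Eif3i with 1.22 RPKM, Eif4a1 with 5.82 RPKM and Eif4e3 with 2.20 RPKM. Day 15 replicate 6 did so for Eif2c2 with 392 RPKM and Eif2s3y with 8.99 RPKM, replicate 3 for Eif2s3x with 0.334 RPKM and Eif3k with 6.66 RPKM, and replicate 8 for Eif1b with 0.624 RPKM. Among Control libraries, replicate 2 stood apart for Eif1b with 4.98 RPKM and replicate 5 for Eif3k with 1.75 RPKM.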

How the results depend on the processing

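At Day 15 against Control and Day 15 against Day 5, 0 initiation factor genes passed under every alternative run, leaving out each library included. Of all genes at most 0.963% were called at Day 15 against Control and at most 0.185% at Day 15 against Day 5. At Day 5 against Control the count of 3 became 0 without a filter, under upper-quartile scaling, a common RPKM sum with Rn45s left out and quantile normalization, with detected genes as a covariate, without libraries of fewer than 2000 detected genes, and within replicate numbers 1 to 6 or 7 to 10, which hold fewer libraries. Of all genes 0.106% were called without a filter and 0.509%, 0.764% and 0.463% under the 3 scalings. The share was 0% with the covariate, 0.278% without libraries of fewer than 2000 detected genes, and 0.0926% within either number range. A count of 0 lies near these shares. Quantile normalization was run in 3 forms, since the planned wording did not fix one: on the log2 values of the genes tested, and, added after seeing the data, on the RPKM of the genes tested and on the RPKM of all genes before the log. All 3 gave 0 initiation factor genes, with 20, 24 and 38 genes called in all and medians over the 35 genes of 0.54, 0.57 and 0.68. With displaced values left out as well, quantile normalization gave 0 and a median of 0.33, where 0.972% of all genes were called.

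The share of all genes called, 6.04% in the main fit, also differed between alternatives, and not always in the direction of the count. The count was 1 of 16 genes at a mean RPKM of at least 5 (10.4% of all genes called), 11 with a pseudocount of 0.1 (12.8%), 9 with library weights (13.8%) and 11 with the number range as a covariate (9.22%). The covariate of detected genes gave a median of 0.37. Leaving out 1 library gave counts of 1 (without Day 5 replicate 1 or 3) to 11 (without Day 5 replicate 7), with 8 without Day 5 replicate 6 or Control replicate 2 and 7 without Day 5 replicate 8 or 9, while 2.22% to 9.68% of all genes were called; the cause was not tested. With the replicate number as a block the count was 14, where 11.6% of all genes were called. The labels do not say whether equal numbers pair libraries. Over 20 same-numbered pairs the correlation of deviations was -0.057 to 0.084, and 3 matched their own number best. With no known pair to compare, these values cannot exclude a shared animal or batch. Depth is unknown and cannot be weighed.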
